A study of Mus musculus with 104 samples.

Results

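Kupffer cells are the resident macrophages of the liver sinusoids, and TIM4, the protein of Timd4, is a surface receptor for phosphatidylserine with which they bind dying cells. In mouse liver TIM4 marks Kupffer cells of long residence, while macrophages that have arrived from blood monocytes lack it at first and gain it slowly. SMAD4 joins the receptor-activated SMADs of both TGF-beta and BMP signalling, and the complex enters the nucleus to regulate genes. The comparison sets TIM4- against TIM4+ liver macrophages of 1 Smad4 knockout strain, so that both groups carry cre, and asks which other transcripts differ with TIM4.

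The members were the 5 libraries whose titles name Smad4 knockout cells with or without TIM4, out of 104 libraries in the series. The TIM4- group held 2 libraries, titled smadKOt4n_716 and smadKOt4n_TT, and the TIM4+ group held 3, smadKOt4p_716, smadKOt4p_CG and smadKOt4p_GC. All 5 came from untreated mice of the strain Smad4 flox/flox Clec4f-cre +/-, in which cre is driven from Clec4f, a lectin gene of Kupffer cells, so cre is made in cells that use that gene. Control Kupffer cells from untreated Smad4 flox/flox mice without cre gave 2 more libraries, AT and CA, whose titles carry t4 without a sign. Age, sex and the number of mice per library are not given in the labels used here, so p-values measure the spread between libraries, which may be technical in part. Poly(A) RNA of sorted cells was sequenced, and values are TPM, a level scaled for transcript length and library depth. Depth was 12855487 to 17212029 reads recovered from the TPM, and 9946 genes that reached 4 TPM in 2 of these 7 libraries were tested.

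The labels were checked first. Timd4 (chr11:46810799-46844333, plus strand, mm10) stood at 4.37 and 4.94 TPM in TIM4- libraries, against 210, 336 and 385 TPM in TIM4+ libraries and 619 and 537 TPM in controls. Every TIM4- library lay far below every TIM4+ library, with a log2 difference of -5.74 ± 0.25 (SE, limma adjusted p = 0.000765), and since this gene's protein defined the sort, the difference checks the labels and is no finding. Smad4 was at 15.1 and 19.6 TPM in TIM4- libraries, against 13.7, 21.5 and 19.5 TPM in TIM4+ libraries and 35.7 and 33.4 TPM in controls. The TIM4- and TIM4+ ranges of Smad4 overlapped (log2 difference -0.06 ± 0.20, limma adjusted p = 0.998), and both groups lay below both controls. These levels cover the whole transcript, so the loss of single exons was not checked. Clec4f, the gene that drives cre, stood at 766 and 882 TPM in TIM4- libraries, against 1435, 1908 and 1579 TPM in TIM4+ libraries and 6347 and 6201 TPM in controls. The groups did not overlap, but the log2 difference of -0.99 ± 0.15 did not pass the threshold (limma adjusted p = 0.131).

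Defining markers of Kupffer cells were present in both groups. The scavenger protein gene Cd5l was at 1598 and 2665 TPM in TIM4- libraries and at 2225, 3955 and 3107 TPM in TIM4+ libraries. Ly6c2, a marker of classical blood monocytes, was at 1.60 TPM or less in the 5 knockout libraries. These 2 genes do not stand for their lists, which are described below. Of 9 monocyte genes tested, 6 had a TIM4- minus TIM4+ difference above 0 and 3 below 0, with a median of 0.73. Among 21 Kupffer identity genes, 20 had a difference below 0. In bulk RNA, fewer cells of a type and less RNA per cell cannot be told apart.

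Of the 9946 genes, 5 passed the threshold as lower in TIM4- cells (0.0503% of those tested), and 0 passed as higher. The threshold was a Benjamini-Hochberg adjusted p below 0.05 in limma with a change of at least 2-fold. Before adjustment, 359 genes were lower (3.61%) and 226 higher (2.27%) at p below 0.05, 585 in all (5.88%), and limma-voom on the recovered reads called 2 genes lower and 0 higher. The 5 were Timd4, the lectin genes Cd209f and Cd209g, Mxra8 and Ryk. The median moderated standard error over the tested genes was 0.17 on the log2 scale.

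Cd209f and Cd209g encode C-type lectins of the mouse CD209 family, relatives of the human lectin DC-SIGN, which bind sugars on microbes. They lie head to head on chromosome 8, with 28972 bases between their starts. Cd209f is at chr8:4102793-4105764 on the minus strand and Cd209g at chr8:4134736-4137707 on the plus strand (mm10). The 250 bases before each gene start are shown because the pair shares a long part of them. Whether this part bears on the levels of the pair was not tested. Capitals mark the longest run of identical bases, 154 long. The sequences are those of RefSeq on GRCm38.p6, the build also called mm10, at chr8:4105765-4106014 for Cd209f and chr8:4134486-4134735 for Cd209g, each 5′ to 3′ along its gene.
Cd209f: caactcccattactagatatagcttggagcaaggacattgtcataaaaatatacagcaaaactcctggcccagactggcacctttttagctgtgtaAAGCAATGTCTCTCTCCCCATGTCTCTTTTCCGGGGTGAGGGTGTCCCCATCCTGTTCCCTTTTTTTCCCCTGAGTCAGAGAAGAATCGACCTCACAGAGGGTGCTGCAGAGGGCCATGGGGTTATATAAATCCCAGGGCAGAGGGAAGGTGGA
Cd209g: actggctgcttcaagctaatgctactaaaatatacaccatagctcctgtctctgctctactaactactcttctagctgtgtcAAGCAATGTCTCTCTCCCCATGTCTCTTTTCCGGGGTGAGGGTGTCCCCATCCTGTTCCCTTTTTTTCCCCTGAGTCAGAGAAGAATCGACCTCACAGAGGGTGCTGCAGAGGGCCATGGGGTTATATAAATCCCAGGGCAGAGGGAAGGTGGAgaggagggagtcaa

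For comparison, the 250 bases before Timd4 (chr11:46810549-46810798, plus strand) shared no exact run longer than 7 bases with those of Cd209f. Capitals in Timd4 mark its match to the composite element that ETS and IRF factors bind, GGAA and GAAA with 2 bases between.
Timd4: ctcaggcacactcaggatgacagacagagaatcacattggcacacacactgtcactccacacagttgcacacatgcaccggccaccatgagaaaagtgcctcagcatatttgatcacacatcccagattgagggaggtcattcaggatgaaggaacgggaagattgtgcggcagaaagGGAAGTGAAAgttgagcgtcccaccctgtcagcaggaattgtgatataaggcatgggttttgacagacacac

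Matches to 4 motifs were counted on both strands in the 250 bases before each of the 5 genes, and 2.30% of 32851 RefSeq promoters of that length hold the ETS and IRF element, which occurred in Timd4 only. The AP-1 motif TGACTCA occurred 1 time each in Cd209f and Cd209g, within the capitals as TGAGTCA, and in 0 of the other 3 genes, and 4.46% of promoters hold it. The short SMAD motif CAGAC occurred 2 times in Timd4, 1 time each in Cd209f, Mxra8 and Ryk and 0 times in Cd209g, and 42.2% of promoters hold it. The LXR element, AGGTCA repeated with 4 bases between, occurred in 0 of the 5, and 0.0152% of promoters hold it. The motifs were chosen with the sequences in view, and a match of letters is no evidence of a bound site.

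Cd209f stood at 7.92 and 7.91 TPM in TIM4- libraries, against 104, 149 and 85.0 TPM in TIM4+ libraries and 19.8 and 11.9 TPM in controls. Both TIM4- libraries lay below all 5 others, and the 3 TIM4+ libraries lay above both controls. Cd209f averaged 7.91 ± 0.00707 TPM in TIM4- cells (SD, n = 2) and 113 ± 32.9 TPM in TIM4+ cells (SD, n = 3), and fell by 3.63 ± 0.28 on the log2 scale (SE, limma adjusted p = 0.0130). Cd209g stood at 0.609 and 1.12 TPM in TIM4- libraries, against 28.1, 42.7 and 25.2 TPM in TIM4+ libraries and 4.58 and 2.19 TPM in controls. Its libraries fell in the same order of groups, with a log2 difference of -4.13 ± 0.32 (limma adjusted p = 0.0130). Cd209g reached the minimum for testing only through the TIM4+ libraries, so its direction was partly fixed by that minimum. Against controls, TIM4- cells had log2 differences of -0.88 ± 0.30 for Cd209f (limma adjusted p = 0.228) and -1.19 ± 0.35 for Cd209g (limma adjusted p = 0.164). Against the same control libraries, TIM4+ cells had 2.76 ± 0.28 for Cd209f (limma adjusted p = 0.00974) and 2.93 ± 0.32 for Cd209g (limma adjusted p = 0.0117).

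The transcripts of this pair are close copies. Of 1193 aligned positions of Cd209f-203 and Cd209g-201 in GENCODE vM21, 1068 (89.5%) were identical, and the longest exact run was 416 bases. How the authors' counting placed reads that fit both is not given in the sources used here, so a part of the reads of one gene could be counted for the other. The family member Cd209b was at 0.41 and 0.79 TPM in TIM4- libraries, against 2.33, 5.13 and 1.88 TPM in TIM4+ libraries, below the minimum for testing, and Cd209c was listed at 0 in all 7 libraries.

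Mxra8 (chr4:155839680-155844102, plus strand) encodes an immunoglobulin-type surface protein that serves as an entry receptor for several alphaviruses. It stood at 12.7 and 9.72 TPM in TIM4- libraries, against 39.5, 32.1 and 36.0 TPM in TIM4+ libraries and 34.8 and 38.4 TPM in controls. TIM4- libraries were low, and TIM4+ libraries overlapped the controls. Mxra8 fell by 1.60 ± 0.15 on the log2 scale (limma adjusted p = 0.0341). Ryk (chr9:102834920-102908307, plus strand) encodes a Wnt-binding receptor with an inactive kinase domain. It was named because it passed the test, after its values were seen, since its TIM4+ mean of 9.36 ± 1.12 TPM (SD, n = 3) lay under the 10 TPM asked of named genes. Ryk stood at 2.59 and 2.67 TPM in TIM4- libraries, against 8.53, 10.6 and 8.91 TPM in TIM4+ libraries and 15.2 and 14.3 TPM in controls. Its groups formed 3 separate steps, lowest in TIM4- cells, and the log2 difference was -1.51 ± 0.14 (limma adjusted p = 0.0341).

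**Figure D1:**
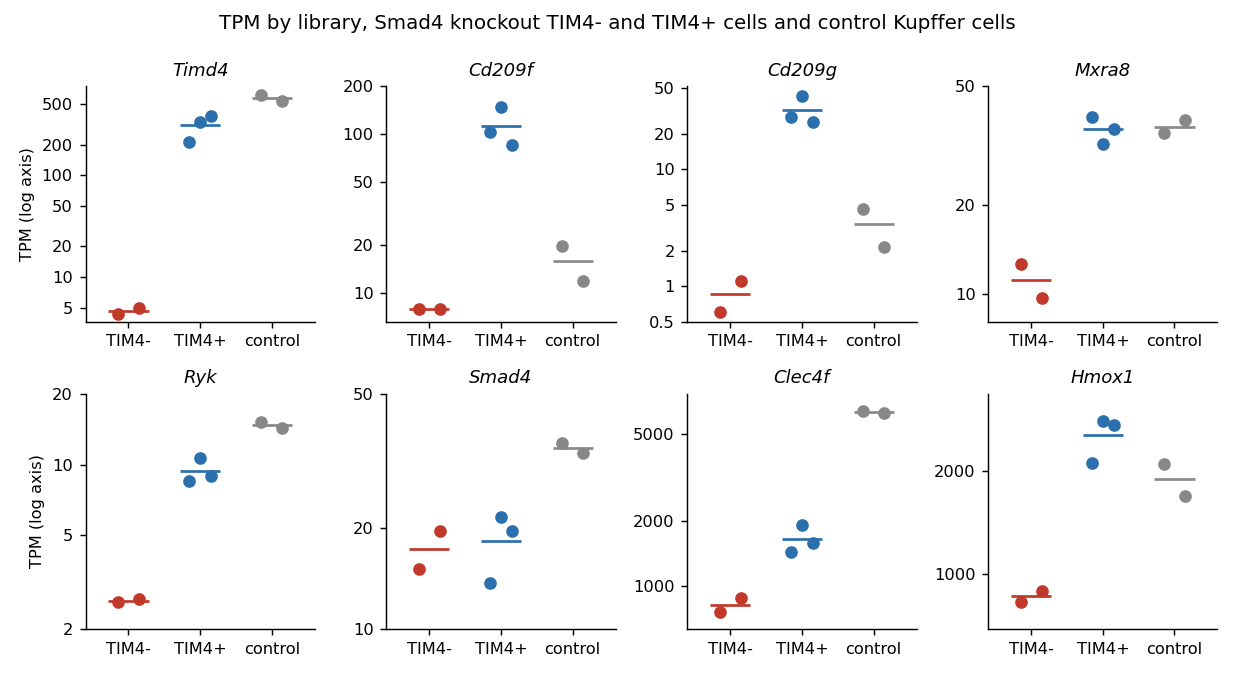
TPM on a log axis in each library of Smad4 knockout TIM4- (left), Smad4 knockout TIM4+ (middle) and control cells (right) for 8 genes, with points for libraries and lines for group means. Timd4, Cd209f, Cd209g, Mxra8 and Ryk are lower in both TIM4- libraries than in all 3 TIM4+ libraries, while Smad4 overlaps between these groups and lies below both controls.

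The calls other than Timd4 depended on single libraries and on the processing. Timd4 stayed below the threshold when any of the 7 libraries was left out (limma adjusted p of 4.46e-05 to 0.0197), while Cd209f and Cd209g missed it without library smadKOt4n_716 or without TIM4- library TT, with the 2 adjusted p reaching 0.114. Mxra8 and Ryk missed it without any single library, with adjusted p of 0.0841 to 0.171 for Mxra8 and 0.0974 to 0.230 for Ryk. With no filter on low values, limma gave adjusted p of 0.0671 for Cd209f and Cd209g, 0.0959 for Mxra8 and 0.132 for Ryk. Limma-voom gave 0.0530 for Cd209f, Mxra8 and Ryk and 0.0803 for Cd209g, and with only the 5 knockout libraries Mxra8 (0.138) and Ryk (0.199) missed the threshold in limma.

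Beyond these calls, genes were described by whether they differed at least 2-fold with no overlap between the libraries of the TIM4- and TIM4+ groups. By this rule, 117 genes were lower in TIM4- cells (1.18% of those tested) and 51 were higher (0.513%). In counts of list or set members below, no overlap stands for this rule, 2-fold included. No test stands behind a single gene of this kind, so their values are given as measured. Genes without overlap at any fold numbered 916 lower (9.21%) and 996 higher (10%). Groups of 2 and 3 libraries that do not differ separate by chance about as often in each direction. Lack of overlap alone is therefore no evidence of a difference. The counts at 2-fold moved with single libraries. There were 213 lower and 137 higher genes without TIM4- library TT, and 177 lower and 83 higher without library smadKOt4n_716. Without TIM4+ libraries the counts were 204 lower and 110 higher (smadKOt4p_716), 77 lower and 38 higher (smadKOt4p_CG) and 190 lower and 80 higher (smadKOt4p_GC).

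**Figure D2:**
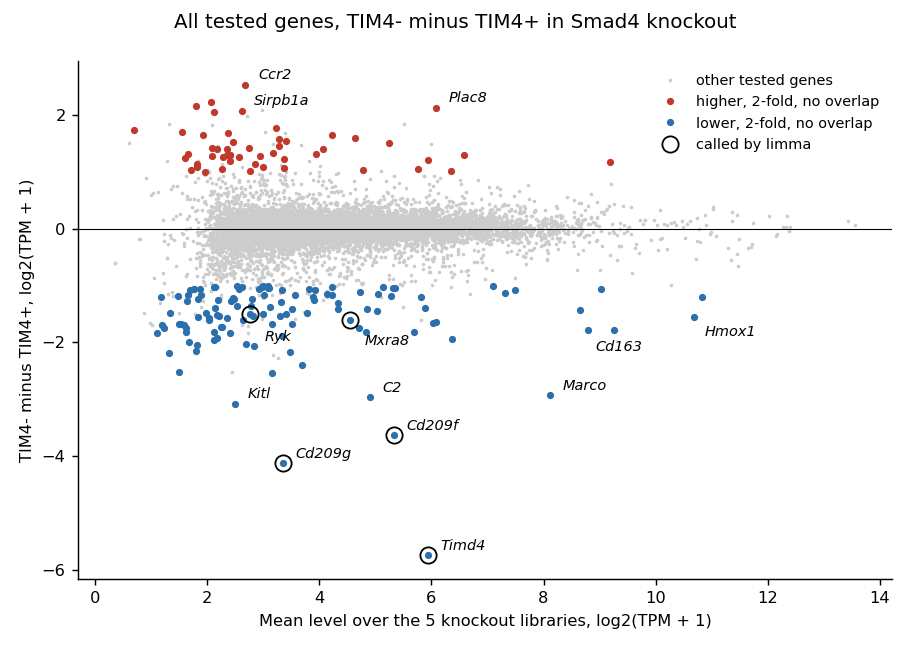
Difference between TIM4- and TIM4+ cells on the log2(TPM + 1) scale against the mean level over the 5 knockout libraries, 1 point for each of 9946 genes. Rings mark the 5 genes called by limma, all lower in TIM4- cells, and colours mark the 117 lower and 51 higher genes that differed 2-fold with no overlap.

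Markers of long-resident Kupffer cells had the lowest median of the 30 lists described. All 11 passed the minimum for testing, and 2 were called lower, Timd4 and Cd209f (0.0503% of all tested genes were). With Timd4 counted, 8 were lower by 2-fold with no overlap (1.18% of all tested genes were). The median log2 difference was -1.96, against 0.01 over all tested genes. The list was drawn partly from earlier results of this series and holds the sort gene, so its direction is no independent evidence. Its other members with no overlap were C2, Marco, Lepr, Colec12, Cd163 and C6. Marco, a scavenger receptor for bacteria and particles, stood at 189 and 34.3 TPM in TIM4- libraries, against 1507, 416 and 382 TPM in TIM4+ libraries and 287 and 360 TPM in controls. Library smadKOt4p_716 was far above the other two, and the log2 difference of -2.93 ± 0.81 missed the threshold (limma adjusted p = 0.490). Lepr encodes the leptin receptor. It was at 1.61 and 2.73 TPM in TIM4- libraries, against 45.5, 13.9 and 7.59 TPM in TIM4+ libraries and 99.6 and 109 TPM in controls (limma adjusted p = 0.399). Colec12, a collectin scavenger receptor gene, was at 1.78 and 0.332 TPM in TIM4- libraries, against 11.1, 8.39 and 2.71 TPM in TIM4+ libraries (limma adjusted p = 0.487).

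Of 21 Kupffer identity genes, all tested, 0 were called in limma in either direction. In TIM4- cells 7 were lower by 2-fold with no overlap (1.18% of all tested genes were). A difference below 0 was seen for 20 of 21, with a median of -0.73. The summed TPM of the 21 was 10133 and 13090 in TIM4- libraries, against 17540 to 21460 in TIM4+ libraries. Controls were at 25897 to 26414, and these 3 ranges did not overlap. The exception in direction was Cd207, the langerin gene, at 225 and 375 TPM in TIM4- libraries, against 106.2, 153.1 and 299.4 TPM in TIM4+ libraries, which overlapped. Id1, a BMP-induced inhibitor of DNA binding, was at 5.70 and 5.02 TPM in TIM4- libraries, against 9.79, 14.1 and 28.3 TPM in TIM4+ libraries and 26.1 and 33.3 TPM in controls (log2 difference -1.41 ± 0.38, limma adjusted p = 0.487). Its relative Id3, also induced by BMP, was at 48.1 and 73.8 TPM in TIM4- libraries, against 59.3, 124 and 154 TPM in TIM4+ libraries, which overlapped. The LXR receptor gene Nr1h3 was at 155 and 188 TPM in TIM4- libraries, against 203, 261 and 230 TPM in TIM4+ libraries (log2 difference -0.43 ± 0.15, limma adjusted p = 0.690).

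Complement genes lay on both sides. Of 13 tested, 0 were called in either direction by limma, 5 were lower with no overlap and 1 was higher, where 1.18% and 0.513% of all tested genes were. C2, the serine protease of the classical and lectin pathway convertase, stood at 10.1 and 5.90 TPM in TIM4- libraries, against 72.9, 99.4 and 41.7 TPM in TIM4+ libraries and 101 and 100 TPM in controls. Both TIM4- libraries were low and the log2 difference was -2.96 ± 0.36, just outside the threshold (limma adjusted p = 0.0744). C2 passed the threshold when TIM4+ library GC was left out, with a limma adjusted p of 0.0393, and with a replicate block (0.0189), and missed it under each other alternative, at up to 0.349. Vsig4, the complement receptor with which Kupffer cells bind opsonised bacteria, was at 808 and 1489 TPM in TIM4- libraries, against 2060, 3478 and 2283 TPM in TIM4+ libraries (limma adjusted p = 0.429). C4b and C6, of the classical convertase and the membrane attack complex, had log2 differences of -1.13 ± 0.43 and -1.44 ± 0.54 and TIM4- libraries that lay far apart from each other, at 64.0 and 152 TPM for C4b and 110 and 443 TPM for C6. Cfb, the protease of the alternative pathway convertase, went the other way, at 139 and 110 TPM in TIM4- libraries, against 70.3, 49.7 and 63.7 TPM in TIM4+ libraries (log2 difference 1.01 ± 0.19, limma adjusted p = 0.219). C1qa, which starts the classical pathway, was at 4472 and 4088 TPM in TIM4- libraries, against 5132, 4292 and 4664 TPM in TIM4+ libraries, a log2 difference of -0.13 ± 0.13 that its spread covers.

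Among 14 genes of iron and heme handling tested, limma called 0, and the median log2 difference was -0.30. Of the 14, 3 were lower by 2-fold with no overlap (1.18% of all tested genes were). Hmox1, which opens the heme ring, stood at 828 and 893 TPM in TIM4- libraries, against 2122, 2814 and 2740 TPM in TIM4+ libraries and 2099 and 1698 TPM in controls. Both TIM4- libraries were below all 5 others, and the log2 difference of -1.56 ± 0.17 lay just outside the threshold (limma adjusted p = 0.0598). Under the alternatives its adjusted p ranged over 0.0164 to 0.288, inside the threshold in limma-voom, after quantile normalization, with a replicate block and without library smadKOt4p_716, and outside it in the others. Cd163, the receptor for haemoglobin bound to haptoglobin, was at 273.9 and 161.5 TPM in TIM4- libraries, against 878, 820 and 525 TPM in TIM4+ libraries and 1351 and 1324 TPM in controls (log2 difference -1.78 ± 0.29, limma adjusted p = 0.154). Hmox1 and Cd163 were the 2 of these 3 that handle heme or haemoglobin. The third, Hpgd, encodes an enzyme that degrades prostaglandins and was at 368 and 300 TPM in TIM4- libraries, against 526, 1051 and 614 TPM in TIM4+ libraries. Slc48a1, the heme transporter gene, was at 154 and 163 TPM in TIM4- libraries, against 224, 262 and 244 TPM in TIM4+ libraries, a difference below 2-fold (log2 -0.61 ± 0.12, limma adjusted p = 0.251). The iron exporter gene Slc40a1 overlapped, at 1734 and 2673 TPM in TIM4- libraries and 1928, 3408 and 3129 TPM in TIM4+ libraries.

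For the SMAD pathway itself, few genes lay apart. Of 15 tested targets of TGF-beta and SMAD signalling, limma called 0, only Id1 was lower with no overlap, and the median was -0.03. Smad7, the inhibitory SMAD induced by the pathway, was at 11.4 and 23.3 TPM in TIM4- libraries, against 9.37, 18.7 and 18.6 TPM in TIM4+ libraries and 42.0 and 37.2 TPM in controls. Of 17 ligands, receptors and SMADs tested, limma called 0, and the type I BMP receptor gene Bmpr1a was the only one without overlap at 2-fold. Bmpr1a was at 0.445 and 0.457 TPM in TIM4- libraries, against 2.99, 5.79 and 2.71 TPM in TIM4+ libraries and 9.55 and 9.04 TPM in controls (log2 difference -1.68 ± 0.31, limma adjusted p = 0.199). Tgfbr1, the type I TGF-beta receptor gene, was at 119 and 133 TPM in TIM4- libraries, against 93.2, 88.9 and 93.9 TPM in TIM4+ libraries (log2 difference 0.45 ± 0.14, limma adjusted p = 0.619).

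Receptors for dying cells, lectins and lipid genes followed. Of 15 tested genes for the uptake of dying cells, 1 was called lower, Timd4 itself, and the median was -0.11. Axl was at 866 and 937 TPM in TIM4- libraries, against 1044, 1273 and 1187 TPM in TIM4+ libraries, and Mertk at 389 and 463 TPM in TIM4- libraries, against 418, 511 and 455 TPM in TIM4+ libraries. Of 21 scavenger receptors and lectins, 2 were called lower (Cd209f and Cd209g) and 5 were lower with no overlap (1.18% of all tested genes were), with a median of -0.10. Of 15 LXR targets, limma called 0, and Apoc1, an apolipoprotein gene, was the one without overlap, at 273 and 307 TPM in TIM4- libraries, against 1081, 1217 and 754 TPM in TIM4+ libraries and 1390 and 1680 TPM in controls (log2 difference -1.78 ± 0.21, limma adjusted p = 0.0744).

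**Figure D3:**
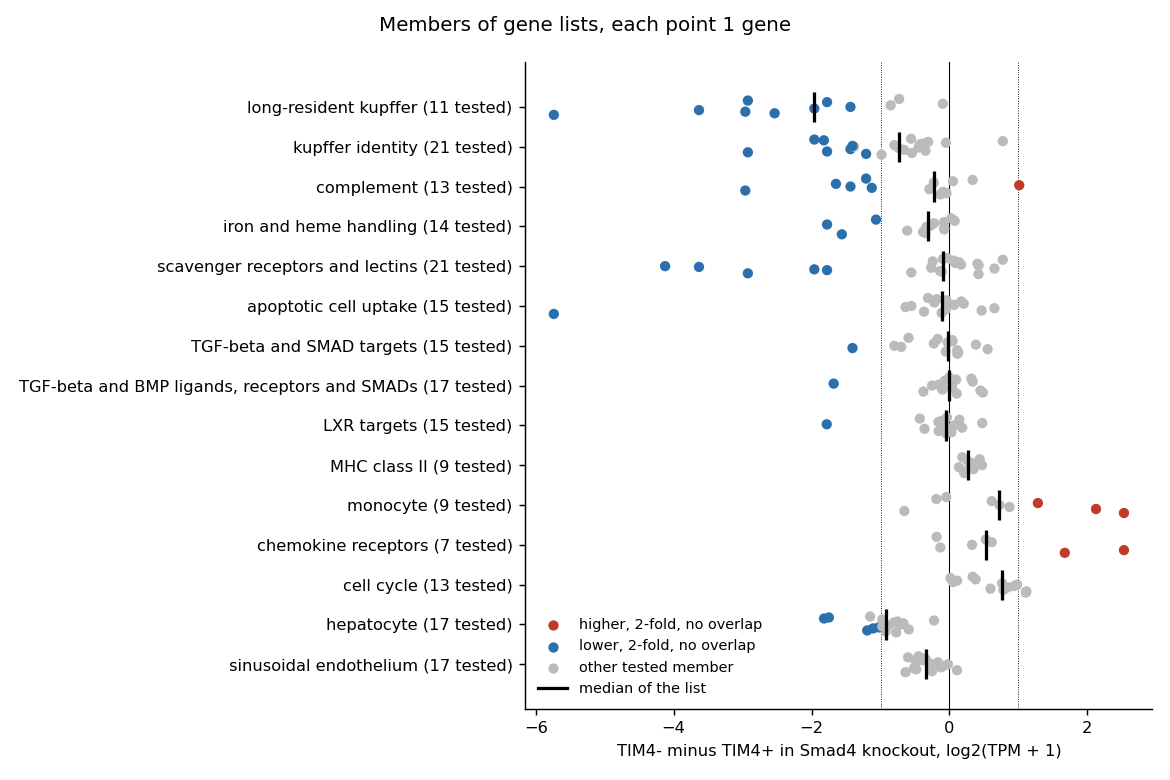
Log2 difference between TIM4- and TIM4+ cells for the tested members of 15 gene lists, 1 point per gene, with a black bar at the median of each list and dotted lines at 2-fold. Long-resident Kupffer cell genes have the lowest median, -1.96, and monocyte, chemokine receptor and cell cycle genes have medians of 0.73, 0.53 and 0.76.

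Monocyte markers and chemokine receptors included genes with higher values in TIM4- cells, but 0 passed the threshold. Of 17 monocyte genes, 9 reached the minimum for testing, limma called 0, and 3 were higher with no overlap (0.513% of all tested genes were), with a median of 0.73. Ccr2, the receptor that brings monocytes out of the marrow, stood at 11.5 and 26.1 TPM in TIM4- libraries, against 1.59, 2.17 and 2.93 TPM in TIM4+ libraries and 1.79 and 1.40 TPM in controls. Its TIM4- libraries were above all 5 others, and its log2 difference of 2.53 ± 0.36 had the smallest adjusted p of any higher gene, 0.107 in limma. Blood Ly6C-high monocytes of the series, in a table scaled separately, had 1616 ± 238 TPM of Ccr2 (SD, n = 4). Plac8 was at 237 and 111 TPM in TIM4- libraries, against 49.8, 21.9 and 44.1 TPM in TIM4+ libraries and 122 and 173 TPM in controls (log2 difference 2.13 ± 0.43, limma adjusted p = 0.262). Ms4a4c was at 13.7 and 10.6 TPM in TIM4- libraries, against 3.93, 2.98 and 6.88 TPM in TIM4+ libraries (limma adjusted p = 0.511). Of 7 chemokine receptors tested, limma called 0 and 2 were higher with no overlap, Ccr2 and Ccr1 (0.513% of all tested genes were). Both reached the minimum for testing only through the TIM4- libraries, so their direction was partly fixed by that minimum. Ccr1 was at 12.7 and 6.78 TPM in TIM4- libraries, against 2.57, 1.18 and 3.39 TPM in TIM4+ libraries. Cx3cr1, the fractalkine receptor gene, overlapped, at 785 and 445 TPM in TIM4- libraries and 553, 239 and 435 TPM in TIM4+ libraries, with both groups above the controls at 7.93 and 2.93 TPM.

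A further 9 genes were picked after their values were seen, each 2-fold apart with no overlap. Kitl, the gene of stem cell factor, was at 0.223 and 1.03 TPM in TIM4- libraries, against 7.87, 23.1 and 10.0 TPM in TIM4+ libraries (log2 difference -3.08 ± 0.52, limma adjusted p = 0.166). Cd55, which speeds the decay of complement convertases, was at 3.01 and 4.75 TPM in TIM4- libraries, against 18.3, 32.1 and 24.4 TPM in TIM4+ libraries (log2 difference -2.40 ± 0.32, limma adjusted p = 0.0912). The receptor kinase gene Erbb2 was at 2.43 and 1.29 TPM in TIM4- libraries, against 12.0, 10.6 and 8.73 TPM in TIM4+ libraries and 1.97 and 3.51 TPM in controls, and here TIM4+ knockout cells stood above both other groups. On the higher side, the signal-regulatory protein gene Sirpb1a was at 14.2 and 12.8 TPM in TIM4- libraries, against 1.91, 1.82 and 4.04 TPM in TIM4+ libraries (log2 difference 2.07 ± 0.31, limma adjusted p = 0.128). The tetraspanin gene Tspan32 was at 18.0 and 19.4 TPM in TIM4- libraries, against 4.15, 2.77 and 8.91 TPM in TIM4+ libraries. The matrix protein gene Emilin1 was at 33.2 and 25.2 TPM in TIM4- libraries, against 12.0, 6.43 and 14.3 TPM in TIM4+ libraries. These 3 genes, and Napsa as well, were also called higher in both the Nr1h3 and the refilling tables described below. Napsa, an aspartic protease gene, was at 29.6 and 12.3 TPM in TIM4- libraries, against 9.83, 2.27 and 8.31 TPM in TIM4+ libraries. The matrix protease genes Mmp9 and Mmp13 also lay higher, Mmp9 at 59.8 and 82.2 TPM in TIM4- libraries against 31.4, 18.7 and 23.9 TPM in TIM4+ libraries, and Mmp13 at 34.1 and 38.0 TPM in TIM4- libraries against 9.96, 7.43 and 16.9 TPM in TIM4+ libraries.

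Markers of other cell types were measured in the same libraries. Of 17 hepatocyte genes, all tested, limma called 0, 5 were lower with no overlap (1.18% of all tested genes were) and all 17 had a difference below 0, with a median of -0.93. Their summed TPM was 3194 and 2013 in TIM4- libraries, against 4060, 5205 and 2599 in TIM4+ libraries and 3091 and 2304 in controls, so the ranges overlapped and TIM4+ library CG was the highest. The albumin gene Alb was at 694 and 442 TPM in TIM4- libraries, against 916, 1746 and 531 TPM in TIM4+ libraries. Those 5 hepatocyte genes are among the 117 counted above as lower, and the part of hepatocyte RNA in the rest was not tested. Of 17 sinusoidal endothelial genes, limma called 0, 0 were 2-fold apart in either direction, and the median was -0.34, with sums of 552 and 695 TPM in TIM4- libraries and 612 to 871 TPM in TIM4+ libraries. Neutrophil, lymphocyte, dendritic cell, erythroid, platelet, eosinophil, stellate and capsular macrophage lists had 1 to 4 tested members each, and of these Mmp9, which macrophages also express, was the only one 2-fold apart with no overlap. The neutrophil markers Ly6g and Mpo were at 0 in all 7 libraries, as were Epb42 of the erythroid list and Fcer1a and Mcpt4 of the eosinophil and mast cell list. Erythroid genes summed to 2.43 and 2.85 TPM in TIM4- libraries and 1.61 to 18.9 TPM in TIM4+ libraries, and platelet genes to 246 and 70.2 TPM in TIM4- libraries and 38.9 to 152.7 TPM in TIM4+ libraries.

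The same sort was made in another strain, which shares no library with the comparison above. The floxed gene of untreated Nr1h3 flox/flox Clec4f-cre +/- mice encodes the nuclear receptor LXR alpha. From these mice, 2 TIM4- and 2 TIM4+ libraries were compared in a fit of all 10 libraries of their table. The fit also held 2 Nr1h3 flox/flox TIM4+ control libraries and bone marrow-derived macrophages, 2 Nr1h3 wild-type and 2 Nr1h3 knockout libraries. All of these add to the pooled spread behind its p-values. In the comparison, 50 of 10558 genes were called lower (0.474%) and 13 higher (0.123%). Nr1h3 itself stood at 341 and 395 TPM in these TIM4- libraries, against 391 and 422 TPM in TIM4+ libraries and 409 and 393 TPM in Nr1h3 flox/flox TIM4+ controls. Its level over the whole transcript thus overlapped the controls, which leaves the loss of an exon unchecked, so their genotype rests on the label alone. Of the 50, 47 passed the minimum in the Smad4 table, and Snord42a, Cd209b and Gstp2 did not. Without Timd4, 29 of the remaining 46 were lower by 2-fold with no overlap in Smad4 knockout TIM4- cells, against 1.18% of all tested genes, and 45 of 46 had a difference below 0, with a median of -1.58. The exception was Mir223. Cd209g and Erbb2, both among the 29, reached the minimum only through the TIM4+ libraries. The count of 29 was thus partly fixed in advance by that minimum. Of the 13 higher genes, 10 passed the minimum, and Slfn4, Sema4d and AI467606 did not. Of those 10, 8 were higher with no overlap here, against 0.513% of all tested genes, with a median of 1.61. They were Ccr2, Ccr1, Sirpb1a, Napsa, Ptpn7, Tspan32, Emilin1 and Fgf11. This count fell to 3 of 6 without library smadKOt4n_716 and 5 of 6 without TIM4- library TT, where 6 of the genes passed the minimum each time. Ccr2 and Ccr1, among others, reached the minimum only with both TIM4- libraries, so the count of 8 was partly fixed in advance by that minimum. Seen from the Smad4 table, 30 of the 98 lower genes tested in both tables (30.6%) were called lower in the libraries labelled Nr1h3 knockout, and 8 of 48 higher genes (16.7%) were called higher.

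The genes called in the Smad4 table had these values in the other. Cd209f was at 21.6 and 24.8 TPM in the TIM4- libraries labelled Nr1h3 knockout, against 131 and 165 TPM in TIM4+ libraries and 58.4 and 54.3 TPM in their controls (TIM4- minus TIM4+ log2 difference -2.62 ± 0.12, limma adjusted p = 2.66e-05). Cd209g fell by 2.97 ± 0.23 there (limma adjusted p = 0.000610). Ryk, at 2.79 and 2.44 TPM in TIM4- libraries labelled Nr1h3 knockout against 4.78 and 5.94 TPM in TIM4+ libraries, had a difference below 2-fold (log2 -0.81 ± 0.13). Mxra8 was at 4.52 and 4.49 TPM in TIM4- libraries labelled Nr1h3 knockout, against 5.03 and 4.09 TPM in TIM4+ libraries (log2 -0.01 ± 0.14, limma adjusted p = 0.991). Cd5l differed by -1.44 ± 0.12 in the libraries labelled Nr1h3 knockout (limma adjusted p = 0.000728) and by -0.55 ± 0.30 in the Smad4 knockout (limma adjusted p = 0.974). Whether any gene's difference was unlike in the 2 strains was not tested, since the tables were scaled separately.

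**Figure D4:**
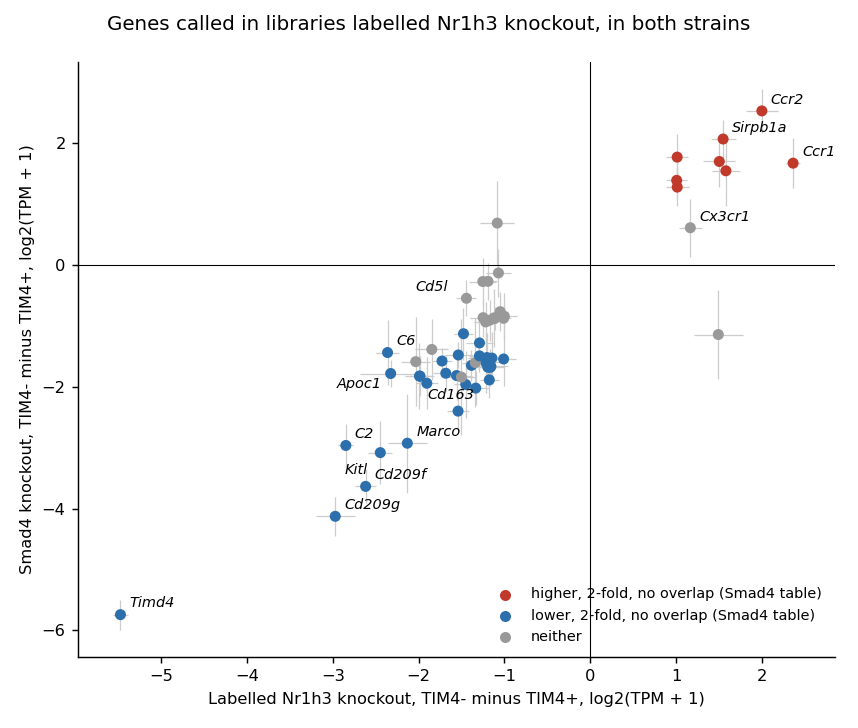
TIM4- minus TIM4+ log2 difference in the Smad4 knockout (vertical) against the libraries labelled Nr1h3 knockout (horizontal) for the genes called in the second and tested in both tables, with bars of 1 SE. Blue points are the 30 genes, Timd4 included, that were also 2-fold lower with no overlap in Smad4 knockout TIM4- cells, and red points are the 8 that were higher.

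Liver macrophages that had newly filled an emptied niche gave a further comparison. In Clec4f-cre/Rosa26iDTR mice, in which diphtheria toxin kills Kupffer cells, macrophages were sorted 336 h after toxin (3 libraries). They were compared with Kupffer cells 72 h after PBS (3 libraries) over 11373 genes. The fit held all 22 libraries of their table, blood monocytes and earlier refilling times included. Its p-values thus rest on a spread pooled over 8 groups. In the comparison, 329 genes were called lower (2.89%) and 0.932% of genes higher. Of the 329, 235 were tested in the Smad4 table, 54 of these (23.0%, against 1.18% of all tested genes) were lower there with no overlap, and the median was -0.49. Of the higher genes, 86 were tested here, 19 (22.1%, against 0.513% of all tested genes) were higher with no overlap, and the median was 0.47. The 5 genes called in Smad4 knockout TIM4- cells were all called lower in refilled cells, so the sort gene Timd4 is among the 54. Timd4 ranged over 7.53 to 21.1 TPM at 336 h and 372 to 451 TPM in Kupffer cells, with a log2 difference of -4.86 ± 0.38 (limma adjusted p = 2.24e-07). Cd209f reached at most 0.364 TPM at 336 h and was at 24.2 to 29.7 TPM in Kupffer cells (log2 difference -4.65 ± 0.33, limma adjusted p = 7.74e-08). Mxra8 was at 1.73 to 2.18 TPM at 336 h and 7.45 to 7.75 TPM in Kupffer cells (log2 difference -1.52 ± 0.35, limma adjusted p = 0.00579), and Ryk at 1.31 to 2.07 TPM at 336 h and 9.15 to 10.7 TPM in Kupffer cells (log2 difference -1.98 ± 0.22, limma adjusted p = 1.25e-05). C2 fell by 5.24 ± 0.36 on the log2 scale, and Ccr2 rose by 3.12 ± 0.30.

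Genes called lower both in the libraries labelled Nr1h3 knockout and in refilled cells numbered 36, all tested here. Of these, 26 were lower with no overlap, the sort gene Timd4 included (1.18% of all tested genes were), and all 36 had a difference below 0. Genes called higher in both numbered 11, of which 9 were tested here and 8 were higher with no overlap (0.513% of all tested genes were). Ccr2 and Ccr1, which reached the minimum only through the TIM4- libraries, are among the 8. Cd209g, which reached it only through the TIM4+ libraries, is among the 26. Kupffer cells of this table had 2180 genes called above blood monocytes (19.2%) and 1816 below them (16%). Of 1704 of the first tested here, 92 (5.40%) were lower in Smad4 knockout TIM4- cells with no overlap and 8 (0.469%) higher, against 1.18% and 0.513% of all tested genes, with a median of -0.14. Of 1336 of the second tested here, 30 (2.25%) were higher and 3 (0.225%) lower, against 0.513% and 1.18% of all tested genes, with a median of 0.08.

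**Figure D5:**
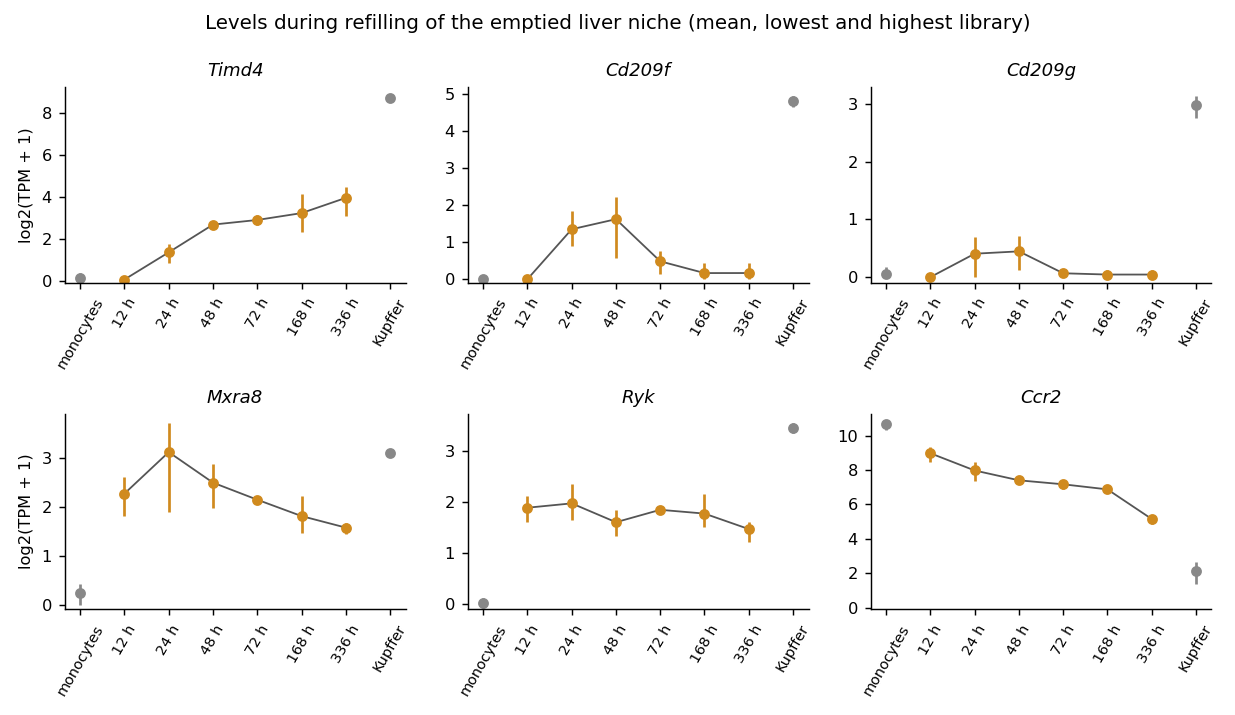
Levels on the log2(TPM + 1) scale in blood Ly6C-high monocytes, in liver macrophages 12 to 336 h after diphtheria toxin and in Kupffer cells for 6 genes, with points for means and bars from the lowest to the highest of 2 to 4 libraries. Timd4 climbs with time yet stays below Kupffer cells at 336 h, Cd209f and Cd209g are near 0 at 168 and 336 h, and Ccr2 falls with time and stays above Kupffer cells at 336 h.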

How the data were processed

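Poly(A) RNA of sorted mouse cells was sequenced. STAR, HOMER and mm10 are named in the submitters' processing notes, with no versions; how reads of near-identical genes were counted is not given in the sources used here. The authors deposited TPM per RefSeq transcript, and 99.9740% or more of low values (up to 20 reads) in the Smad4 table were whole multiples of 1 read within 0.1 read, from which depth was recovered. TPM summed to 531190 to 544220 per library.

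From these values, genes reaching 4 TPM in 2 libraries of their table were fitted with limma 3.58.1 (R 4.3.3) on log2(TPM + 1), with variances moderated along a mean trend, 1 mean per group and no covariates. Fold changes are on this scale, which understates the change of low genes. A gene was called at 2-fold or more with an adjusted p (Benjamini-Hochberg, over the table) under 0.05. The fit was tested on simulated data. Genes named by rule were called genes with a mean of 10 TPM in the higher group (up to 15 a direction), Smad4 and Timd4 as checks, and members of 30 gene lists. The members and lists were chosen with earlier results of these data known. Alternatives were a pseudocount of 0.25, no filter, quantile normalization, only the 5 knockout libraries, limma-voom on recovered reads, a block for the number shared by smadKOt4n_716 and smadKOt4p_716 and leaving out each library. Sequences came from RefSeq and transcripts from GENCODE, aligned with Biopython 1.88, and tables and figures were made with Python 3.11.15, pandas 2.3.3, numpy 2.4.6 and matplotlib 3.10.9. Some members of the lists are counted but not reported here by name.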

Additional observations from a re-analysis of the deposited data

Results flagged for a closer look

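In the 4 blood monocyte libraries, 19 of the named genes were checked for a single library far from the others, and 5 had one. These were Cd209g, at 0.132 TPM in 1 library and 0 in the other 3, Ryk, at 0.088 TPM in 1 and 0 in the other 3, Kitl, at 0.022 TPM in 1 and 0 in the other 3, Cd55, at 1.131 TPM in the pooled library, and Cd163, at 3.88 TPM against 6.07 TPM or more in the other 3. Chance flags about 1 in 20 groups, but that rate does not hold for Cd209g, Ryk and Kitl. With 0 in the other 3 libraries, any value above 0 is flagged. Values this low stand on few reads.

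Il1rn, which encodes the interleukin-1 receptor antagonist and was chosen after its values were seen, differed in direction between the strains. It stood at 16.1 and 14.1 TPM in Smad4 knockout TIM4- libraries, against 7.23, 5.34 and 7.66 TPM in TIM4+ libraries and 37.1 and 31.1 TPM in controls (log2 difference 1.06 ± 0.17, limma adjusted p = 0.154). In the libraries labelled Nr1h3 knockout it was at 4.70 and 5.13 TPM in TIM4- cells, against 5.24 and 6.31 TPM in TIM4+ cells (log2 difference -0.19 ± 0.16, limma adjusted p = 0.744). Libraries of the TIM4- and TIM4+ groups did not overlap in either strain, but the second difference was little larger than its SE. The difference between the strains was not tested.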

How the results depend on the processing

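The fit as reported called 5 genes lower and 0 higher. The count of lower genes was 5 with a pseudocount of 0.25, 7 after quantile normalization, 3 with only the 5 knockout libraries, 2 with no filter on low values (Timd4 and Mir425), and 2 in limma-voom (Timd4 and Hmox1), with 0 higher in each. Leaving out each library gave 1 to 7 lower and 0 higher, with 1 (Timd4) without either TIM4- library and 3 without control AT, control CA or TIM4+ library CG. With the number shared by smadKOt4n_716 and smadKOt4p_716 as a replicate block, at a preset correlation of 0.5 chosen after seeing the data because limma estimated none, 22 were lower and 6 higher. These libraries correlated at 0.651 in their deviations from group means, a hint from 1 pair only. Timd4 was called under each of these settings. Of the genes called in the libraries labelled Nr1h3 knockout, the higher ones 2-fold apart numbered 3 without library smadKOt4n_716 and 5 without TIM4- library TT, and 3 to 8 over all libraries left out. Differences near 0 changed sign: Smad4 with the replicate block (0.0101) and Cd74 after quantile normalization (-0.0942), and, with libraries left out, Smad4 (-0.24 to 0.12), Smad7 (-0.36 to 0.61), Mertk (-0.24 to 0.00949) and Cd74 (-0.33 to 0.60). The cause was not tested. With 2 TIM4- libraries and a median standard error of 0.17, 5 of the 117 lower genes and 0 of the 51 higher genes 2-fold apart with no overlap passed the test.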

Other observations

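MHC class II genes, which present antigen, had 0 calls among 9 tested members in limma and 0 members 2-fold apart. All 9 differences were above 0, with a median of 0.27, and that of Cd74, the invariant chain gene, fell below 0 after quantile normalization. Their summed TPM was 15058 and 32710 in TIM4- libraries smadKOt4n_716 and smadKOt4n_TT, against 11184, 26359 and 25084 in TIM4+ libraries smadKOt4p_716, smadKOt4p_CG and smadKOt4p_GC. Each group's lowest library was the one whose title shares its number with the other.

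Cell cycle genes had 0 calls among 13 tested members in limma and 0 members 2-fold apart with no overlap. All 13 differences were above 0, with a median of 0.76. Mki67, a marker of dividing cells, was at 42.4 and 14.2 TPM in TIM4- libraries, against 18.4, 6.76 and 10.2 TPM in TIM4+ libraries, which overlapped (limma adjusted p = 0.906). Interferon response genes had 14 of 15 differences above 0 and inflammatory genes 8 of 13, with medians of 0.20 and 0.16 and 0 calls in limma. Macrophage transcription factors had 13 of 18 differences below 0 (median -0.16), genes of lipid-associated macrophages 7 of 10 (median -0.20), dissociation stress genes 11 of 13 (median -0.26), cholesterol synthesis genes 7 of 12 (median -0.05) and Notch targets 4 of 5 (median -0.13), again with 0 calls in limma.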
